A study of Homo sapiens with 6 samples.

Results

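The genes described here encode the translation initiation and elongation factors of the cytosol, 48 genes chosen by symbol out of 62754 gene rows in each deposited table. All 48 symbols were found, and they fall into 6 role groups: the ternary complex and its exchange factor (8 genes), start selection and subunit joining (5), the eIF3 subunits (13), cap binding, scaffold and helicase (11), the eIF4E-binding proteins (3) and elongation (8). RNA was measured in HUDEP-2, an immortalised human erythroid progenitor line, in a series on how the MLL1 complex keeps fetal hemoglobin low. Cells received a lentiviral shRNA against MEN1, which encodes the MLL1-complex subunit menin, in 3 libraries, or a non-targeting control shRNA in another 3, and were profiled 72 h after transduction; the former are called the knockdown libraries below. Both groups grew with erythropoietin, stem cell factor, dexamethasone and doxycycline, and both were selected with puromycin, which is itself an inhibitor of translation. The MEN1 group rests on a single hairpin, so loss of menin and any off-target action of that hairpin cannot be told apart. The labels call the libraries of a group biological replicates but do not say whether they came from separate transductions, so the p-values measure the spread between these libraries.

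Initiation factors bring the initiator tRNA and the small ribosomal subunit to the capped end of an mRNA. eIF2 carries the tRNA, and eIF2B recharges eIF2 with GTP. eIF4E binds the cap, eIF4G holds the complex together and eIF4A unwinds the leader, while the eIF4E-binding proteins compete with eIF4G for eIF4E until the mTORC1 kinase phosphorylates them. eIF3 is a large scaffold on the small subunit, and the elongation factors then deliver aminoacyl-tRNAs and move the ribosome along. In erythroid cells the heme-regulated eIF2 alpha kinase ties globin synthesis to heme supply.

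MEN1 itself stood at 6.29, 6.44 and 6.88 TPM in the knockdown and at 41.2, 39.6 and 37.1 TPM in the controls. TPM (transcripts per 1000000) is the share of a gene in its library, corrected for length. The deposited values correspond to 5.56 to 10.8 Gb of aligned bases per library, and 13865 to 14361 genes reached 1 TPM. All 9 erythroid markers were expressed, with a summed level of 75301 to 83077 TPM in the knockdown against 44920 to 49051 TPM in the controls. Most of that sum was HBB and HBA1. At an adjusted p of 0.05 in limma, 6 of the 9 were higher and 0 lower, against 22.1% and 31.5% of all genes tested. GATA1, KLF1 and EPOR did not pass (adjusted p 0.327, 0.508 and 0.859). The globin genes alone took 9.21% to 10.4% of TPM against 5.23% to 5.78%. Markers of other lineages were at or near 0 apart from a few single genes. The megakaryocyte list summed to 16.6 to 21.3 against 31.8 to 36.7 TPM, nearly all of it ITGA2B, with PF4 and PPBP at 0 in all libraries. The mast cell list summed to 422 to 505 against 577 to 749.9 TPM, nearly all TPSAB1. The myeloid list summed to 0.396 to 0.964 against 2.13 to 2.40 TPM, with LYZ lower in the knockdown (adjusted p 0.00116 in limma). The lymphoid list summed to 3.97 to 5.71 against 0.874 to 1.23 TPM. Its CD3D was higher in the knockdown (adjusted p 0.000467 in limma). The fibroblast list reached at most 4.44 TPM, in control replicate 2. Knockdown replicate 1 lay nearest the controls on the first principal component, at -30.0 against -46.1 and -46.9 for the other knockdown libraries and 40.0 to 41.5 for the controls.

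Several of these mRNAs are classical TOP mRNAs, whose transcripts begin with a C followed by an unbroken run of pyrimidines, the terminal oligopyrimidine motif through which mTORC1 and LARP1 control translation. Here a start was counted as a TOP start when the first transcribed base was C and at least the next 4 bases were C or T, read on the strand of the gene. RefSeq promoter entries (GRCh38.p14) were matched for 40 of the 48 genes, with 56 annotated starts. Of these 40 genes, 10 had a TOP start, against 5.12% of the 27167 genes in the table. By start the shares were 17.9% of the members' starts and 4.06% of all 34943 starts. The 8 genes without an entry were EIF2S2, EIF3A, EIF3E, EIF3G, EIF3H, EIF3L, EIF4EBP1 and EEF1D, and their starts were not assessed. The 10 sequences are shown because they set apart, among the 40 matched genes, those that share this start. Their pyrimidine run from the first transcribed base is in capitals. Each window of 30 bases holds 15 bases before the start and 15 from it on.
EIF2S3 (chrX:24054941-24054970, plus strand): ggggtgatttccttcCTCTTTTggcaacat
EIF3D (chr22:36529152-36529181, minus strand): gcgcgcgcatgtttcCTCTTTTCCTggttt
EIF3F (chr11:7987322-7987351, plus strand): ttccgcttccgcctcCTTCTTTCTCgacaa
EIF3K (chr19:38619173-38619202, plus strand): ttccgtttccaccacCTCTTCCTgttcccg
EIF3M (chr11:32583816-32583845, plus strand): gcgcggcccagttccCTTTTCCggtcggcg
EIF4A2 (chr3:186783562-186783591, plus strand): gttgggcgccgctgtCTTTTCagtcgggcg
EIF4B (chr12:53006441-53006470, plus strand): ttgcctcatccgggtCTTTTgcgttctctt
EEF1A1 (chr6:73521018-73521047, minus strand): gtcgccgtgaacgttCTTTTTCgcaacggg
EEF1B2 (chr2:206159880-206159909, plus strand): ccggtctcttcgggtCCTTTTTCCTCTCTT
EEF2 (chr19:3985449-3985478, minus strand): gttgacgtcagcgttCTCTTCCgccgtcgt

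For contrast, the same windows are given for 4 of the members that changed most and have no such start by this rule, all in lower case.
EIF2B1 (chr12:123633672-123633701, minus strand): gaggggtacggaagtgcgccggaagtgggg
EIF3B (chr7:2354812-2354841, plus strand): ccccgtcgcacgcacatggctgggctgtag
EIF3I (chr1:32222392-32222421, plus strand): accttttccggtcttactcacgttgcggcc
EIF4EBP2 (chr10:70404130-70404159, plus strand): ctcccgccttcgcccgcttccggtcgtcgt

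The translation factor mRNAs shifted downward as a group, mostly by little, and a few moved much more than the rest. Of the 48 genes, 47 were tested, and EIF4E3, a cap-binding homolog, was left out because it reached at most 0.0548 TPM in any library. At an adjusted p of 0.05 in limma, 24 of the 47 were lower in the knockdown and 6 were higher, and 17 did not pass. Over all 14294 genes tested, 31.5% passed as lower and 22.1% as higher (53.6% in either direction), against 51.1% and 12.8% of the members. By role group, 62.5% of the ternary complex genes, 40.0% of start selection, 61.5% of eIF3 and 80.0% of cap binding passed in either direction. For the eIF4E-binding proteins and elongation the shares were 100% and 50.0%, to be read against the same 53.6%. The median log2 fold change (log2FC, knockdown minus control) of the members was -0.21, where the median of all genes was -0.07. The middle 50% of members lay between -0.38 and -0.02, a narrower span than the -0.44 to 0.29 of all genes. Among the genes past the threshold, the median absolute log2FC was 0.38 for members and 0.62 for all genes. A fall of at least 1.5-fold was met by 8 members (17.2% of all genes) and a rise of that size by 1, EIF4E2 (11.7% of all genes). All 3 knockdown libraries lay below all 3 controls in 29 members and above them in 6, against 35.9% and 25.8% of all genes (61.8% in either direction).

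The shift appeared in each knockdown library. Measured against the mean of the controls, the members' median was -0.19, -0.23 and -0.25 on the log2 scale in knockdown replicates 1, 2 and 3. The controls had -0.01, -0.02 and 0.03, held near 0 because their own mean is the reference. The shift of all genes (median -0.07) was not taken off these values. Together the 48 genes took 3.81%, 3.63% and 3.67% of TPM in the knockdown and 4.09%, 4.01% and 4.18% in the controls, a ratio of 0.906. EEF1A1 alone was 46.2% of that sum in the knockdown and 45.1% in the controls. Since TPM is a share, the larger globin share in the knockdown libraries moves with this result. Rescaled without globin and mitochondrial-genome genes, the ratio was 0.949, the members' median -0.15, the median of all genes -0.01, and 21 members were lower and 7 higher, 59.6% of those tested against 52.8% of all genes. With TPM scaled by median of ratios the ratio was 0.962, the members' median -0.13, and 18 were lower and 7 higher. On that scale the members' share of calls, 53.2%, was that of all genes tested, 53.1%. In bulk RNA, fewer cells of a type and less RNA per cell cannot be told apart.

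**Figure D1:**
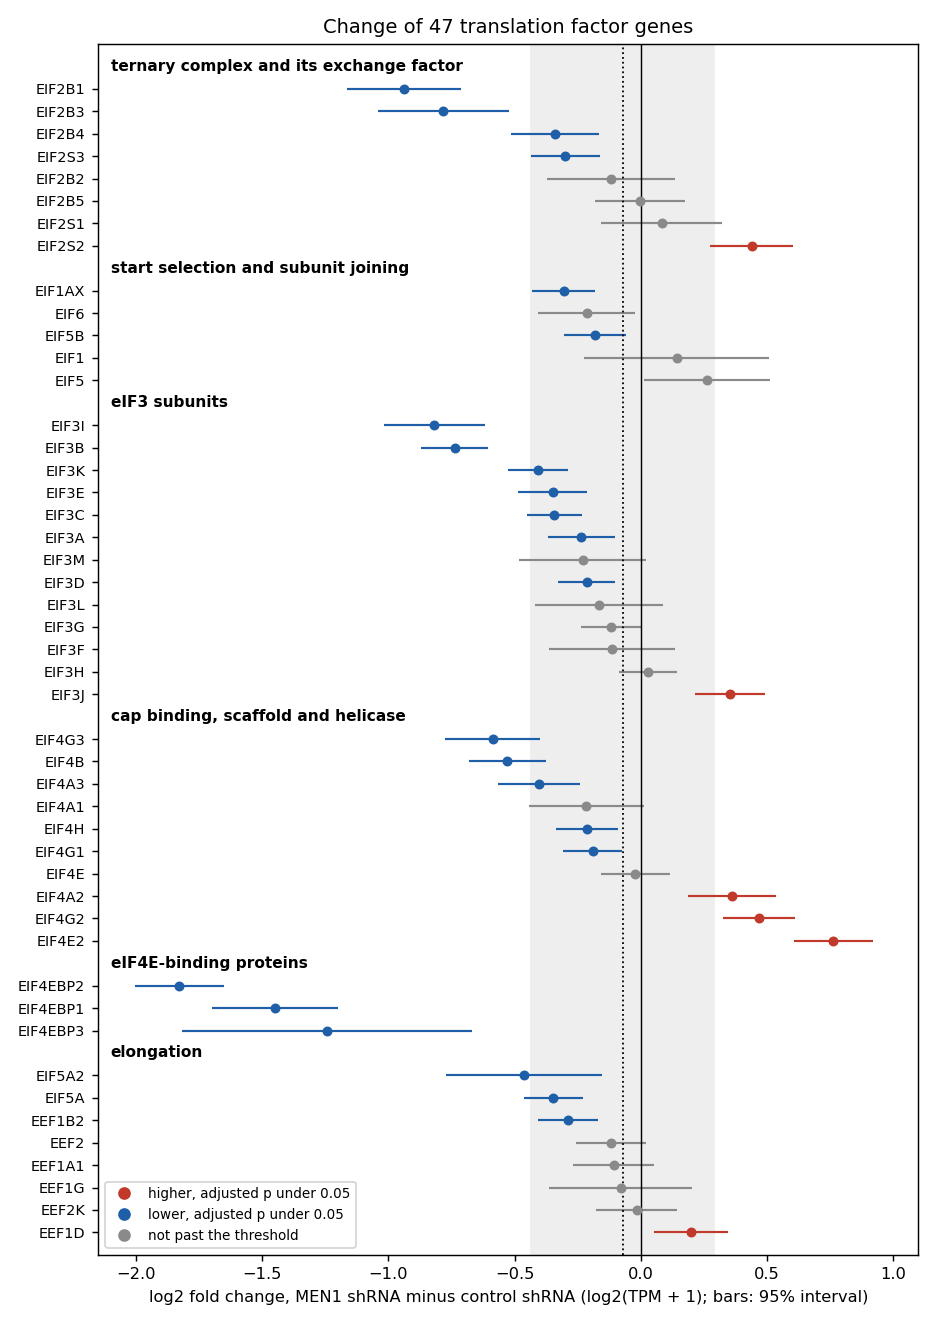
Log2 fold change (MEN1 shRNA minus control shRNA, on log2(TPM + 1)) of the 47 tested genes by role group, with 95% intervals from limma (3 libraries a group). Red and blue mark genes higher and lower at an adjusted p of 0.05, grey those not past it. The grey band and dotted line are the middle 50% (-0.44 to 0.29) and the median (-0.07) of all 14294 genes. The 3 eIF4E-binding protein genes lie farthest left, from -1.83 to -1.24, and EIF4E2 farthest right, at 0.76.

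The largest falls among the members were those of the eIF4E-binding proteins, the inhibitors that hold eIF4E away from eIF4G. All 3 of their genes fell. EIF4EBP2 (ENSG00000148730, chromosome 10, 70404145 to 70428618, plus strand, hg38) stood at 9.41, 8.49 and 8.62 TPM in knockdown replicates 1, 2 and 3 and at 33.4, 34.0 and 34.2 TPM in the controls. No library came near those of the other group, and the mean of 8.84 ± 0.497 TPM (SD, n = 3) was 26.1% of the control mean of 33.9 ± 0.419. Its log2FC of -1.83 had an SE of 0.0752 and an adjusted p of 1.4e-05 in limma, and only 0.916% of all tested genes had a lower value. EIF4EBP1 (ENSG00000187840, chromosome 8, 38030534 to 38060365, plus strand), the most abundant of the family, was at 129, 101 and 105 TPM against 312, 330.3 and 277 TPM. Its mean fell to 36.6% of the control level, with a log2FC of -1.45 (SE 0.107, adjusted p 5.2e-05). Both falls passed the threshold in every one of 18 other settings, between -1.93 and -1.69 for EIF4EBP2 and between -1.56 and -1.33 for EIF4EBP1.

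EIF4EBP3 (ENSG00000243056, chromosome 5, 140547662 to 140549576, plus strand) was at 15.7, 8.84 and 13.5 TPM in the knockdown and at 26.2, 42.7 and 25.7 TPM in the controls (log2FC -1.24, SE 0.247, adjusted p 0.00388). The groups did not overlap, but the spread was wide, and control replicate 2 stood above its group. This gene shares its sequence with the read-through row ANKHD1-EIF4EBP3, which was at 35.6, 38.0 and 16.2 TPM against 28.0, 23.0 and 30.0 TPM. The summed rows had a log2FC of -0.48 and did not pass (adjusted p 0.0676), so the call for EIF4EBP3 depends on how reads were divided between the rows.

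The gene of their partner eIF4E did not pass the threshold. EIF4E, the cap-binding protein, was at 98.2, 94.6 and 94.7 TPM in the knockdown and at 92.1, 98.2 and 102 TPM in the controls, ranges that overlap (log2FC -0.02, 95% interval -0.16 to 0.12, adjusted p 0.789). The summed TPM of the 3 binding-protein genes was 1.57, 1.25 and 1.35 times that of EIF4E in the knockdown libraries and 4.04, 4.14 and 3.31 times in the controls. EIF4EBP1 alone was at 1.32, 1.07 and 1.11 times EIF4E against 3.39, 3.36 and 2.72 times. These are ratios of mRNA levels within a library, which no scaling of a library by a constant changes, and they say nothing of protein or phosphorylation.

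**Figure D2:**
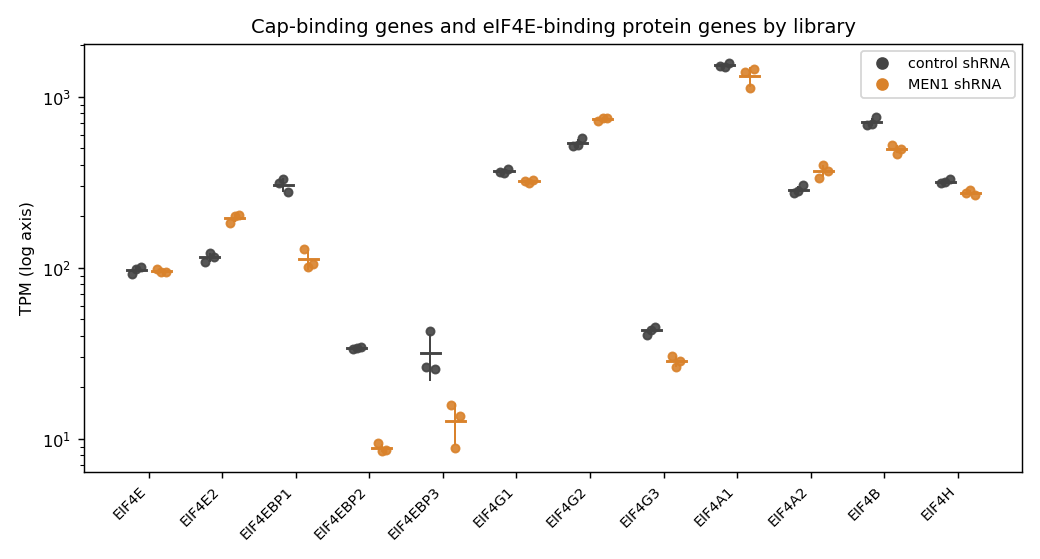
TPM (log axis) of 12 cap-complex genes in each library, control shRNA in dark grey and MEN1 shRNA in orange, with a bar at the mean and a line of 1 SD (n = 3 each). EIF4EBP1, EIF4EBP2 and EIF4EBP3 lie below their controls, EIF4E lies at 92.1 to 102 TPM, and EIF4E2, EIF4G2 and EIF4A2 lie above their controls.

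Among the 10 tested genes of cap binding, scaffold and helicase, 3 rose and 5 fell (median log2FC -0.20), and the genes that rose belong to families whose other members fell or did not pass. EIF4E2 (ENSG00000135930, chromosome 2, 232550659 to 232583644, plus strand) encodes 4EHP, a relative of eIF4E that binds the cap and represses translation. It stood at 184, 199.996 and 204 TPM against 109, 122 and 115 TPM, and every knockdown library lay above every control. The mean rose 1.70-fold (log2FC 0.76, SE 0.0674, adjusted p 9.6e-05). EIF4E2 was the one member past limma's treat test for a rise beyond 0.5 on the log2 scale (adjusted p 0.0213), and its ratio to EIF4E went from 1.18 ± 0.0539 in the controls to 2.05 ± 0.154.

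EIF4G2 (ENSG00000110321, chromosome 11, 10797050 to 10808940, minus strand) encodes DAP5, a relative of eIF4G that lacks the eIF4E-binding region. It was at 724, 751 and 754 TPM in the knockdown and at 514, 523 and 576 TPM in the controls, without overlap (log2FC 0.47, SE 0.0604, adjusted p 0.000484). The scaffolds that do bind eIF4E went the other way. EIF4G3 was at 30.3, 26.2 and 28.4 TPM against 40.2, 43.5 and 45.3 TPM (log2FC -0.59, adjusted p 0.000655). EIF4G1, the main scaffold, was at 324, 315 and 329 TPM against 365, 359.7 and 380.2 TPM, a fall of 12.4% on average (log2FC -0.19, adjusted p 0.0142). That small difference passed in 13 of 18 other settings and reached an adjusted p of 0.143 at most. The ratio of EIF4G2 to EIF4G1 was 2.30 ± 0.0733 in the knockdown and 1.46 ± 0.0534 in the controls.

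The eIF4A helicases also parted. EIF4A2 was at 337, 397 and 369 TPM against 274, 280.4 and 303 TPM, all knockdown libraries above all controls (log2FC 0.36, SE 0.0745, adjusted p 0.00463). EIF4A1, its more abundant paralog, was at 1398, 1125 and 1461 TPM against 1527, 1499 and 1571 TPM. Every knockdown library lay below the controls, but replicate 2 stood well under the others and the difference did not pass (log2FC -0.22, adjusted p 0.103). Without knockdown replicate 3 it passed at -0.29 (adjusted p 0.0493). EIF4A2 made up 19.4%, 26.1% and 20.2% of the pair in the knockdown and 15.2%, 15.8% and 16.2% in the controls. EIF4A3, the paralog that sits in the exon junction complex, fell from 171 ± 6.69 to 129 ± 9.44 TPM (log2FC -0.40, adjusted p 0.00191).

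The helicase cofactors EIF4B and EIF4H both fell. EIF4B, which stimulates eIF4A, was at 521, 465 and 498 TPM against 687, 697 and 759 TPM, clear of the controls (log2FC -0.53, SE 0.0657, adjusted p 0.00041). EIF4H fell less, from 319.8 ± 9.87 to 276 ± 9.02 TPM (log2FC -0.21, adjusted p 0.0111), and that call was lost in 3 of 18 other settings.

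In the ternary complex and its exchange factor, 4 of 8 genes fell and 1 rose (median log2FC -0.21), and within eIF2 one subunit gene rose while another fell. eIF2 has an alpha, a beta and a gamma subunit, encoded by EIF2S1, EIF2S2 and EIF2S3. EIF2S1, whose phosphorylation is the switch of the integrated stress response, was at 161, 123 and 131 TPM against 130.1, 123 and 137 TPM, with overlap (log2FC 0.08, adjusted p 0.533). EIF2S2 was at 236, 267 and 272 TPM against 195, 181 and 194 TPM and rose 1.36-fold without overlap (log2FC 0.44, SE 0.0700, adjusted p 0.00134). EIF2S3, which binds the initiator tRNA, was at 159, 147 and 155 TPM against 179.9, 192 and 196 TPM and fell (log2FC -0.30, adjusted p 0.00375). The ratio of EIF2S2 to EIF2S3 was 1.49, 1.82 and 1.75 in the knockdown and 1.09, 0.942 and 0.989 in the controls.

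eIF2B, the exchange factor, has regulatory subunits encoded by EIF2B1, EIF2B2 and EIF2B4 and catalytic ones encoded by EIF2B3 and EIF2B5. EIF2B1 (ENSG00000111361, chromosome 12, 123620406 to 123633766, minus strand), the alpha subunit that joins the complex into a dimer, was at 37.9, 31.3 and 30.0 TPM in the knockdown and at 60.5, 65.4 and 66.1 TPM in the controls. It fell to 51.6% of the control level, the deepest fall outside the eIF4E-binding proteins (log2FC -0.94, SE 0.0964, adjusted p 0.000176). EIF2B3 was at 40.7, 39.8 and 31.2 TPM against 61.6, 61.9 and 69.8 TPM, also far from overlap (log2FC -0.78, adjusted p 0.000767). EIF2B4 fell less (33.2 ± 1.51 against 42.3 ± 2.83 TPM, log2FC -0.34, adjusted p 0.00639). The remaining subunits did not pass. EIF2B5, the catalytic epsilon subunit, was at 68.8, 60.9 and 59.6 TPM against 66.9, 60.6 and 62.1 TPM (log2FC 95% interval -0.18 to 0.17, adjusted p 0.976), and EIF2B2 had a log2FC of -0.12 (adjusted p 0.394). The ratio of EIF2B1 to EIF2B5 was 0.522 ± 0.0250 in the knockdown and 1.02 ± 0.0971 in the controls.

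Of the 13 eIF3 subunit genes, 7 fell, 1 rose and 5 did not pass (median log2FC -0.23), and their summed TPM was 0.819 times the control level. EIF3I (ENSG00000084623, chromosome 1, 32221077 to 32245397, plus strand), a beta-propeller subunit, was at 225, 235 and 187 TPM in the knockdown and within 378 to 381 TPM in the controls. EIF3B (ENSG00000106263, chromosome 7, 2354086 to 2380745, plus strand), the scaffold that EIF3I and EIF3G bind, was at 271, 244 and 247 TPM against 427, 420.02 and 424 TPM. These members of the same submodule were the lowest of the 13, with log2FC of -0.82 (SE 0.0860, adjusted p 0.000194) and -0.74 (SE 0.0573, adjusted p 6.2e-05). The third, EIF3G, was at 582, 576 and 598 TPM against 655, 615 and 637 TPM and did not pass (log2FC -0.12, adjusted p 0.0843). Under quantile normalization EIF3G was -0.20 and passed (adjusted p 0.00544).

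EIF3K stood at 639, 619.9 and 602 TPM against 840.4, 812 and 816 TPM (log2FC -0.41, SE 0.0504, adjusted p 0.000403). EIF3E, EIF3C, EIF3A and EIF3D fell by smaller steps, with log2FC of -0.35, -0.34, -0.24 and -0.21 and adjusted p-values of 0.00175, 0.000665, 0.0095 and 0.00739. The calls of EIF3A and EIF3D were each lost in 2 of 18 other settings. EIF3C has a near-identical copy, EIF3CL, listed at 47.5% of their sum, and the sum gave -0.33 (adjusted p 0.000753). EIF3F, EIF3H, EIF3L and EIF3M did not pass, with log2FC between -0.23 and 0.03. In other settings EIF3M passed with coverage (adjusted p 0.0114), with libraries weighted by limma (0.0451) and without knockdown replicate 1 (0.0197). EIF3H, at 371, 355 and 376 TPM against 360.2, 364 and 358 TPM, overlapped between the groups, and EIF3B went from 1.18 ± 0.0178 times EIF3H in the controls to 0.692 ± 0.0369 times. EIF3J, the loosely attached subunit that acts in start-site recognition and ribosome recycling, was the one that rose, at 171, 159.9 and 177 TPM against 127, 135 and 134 TPM (log2FC 0.35, SE 0.0597, adjusted p 0.00176).

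**Figure D3:**
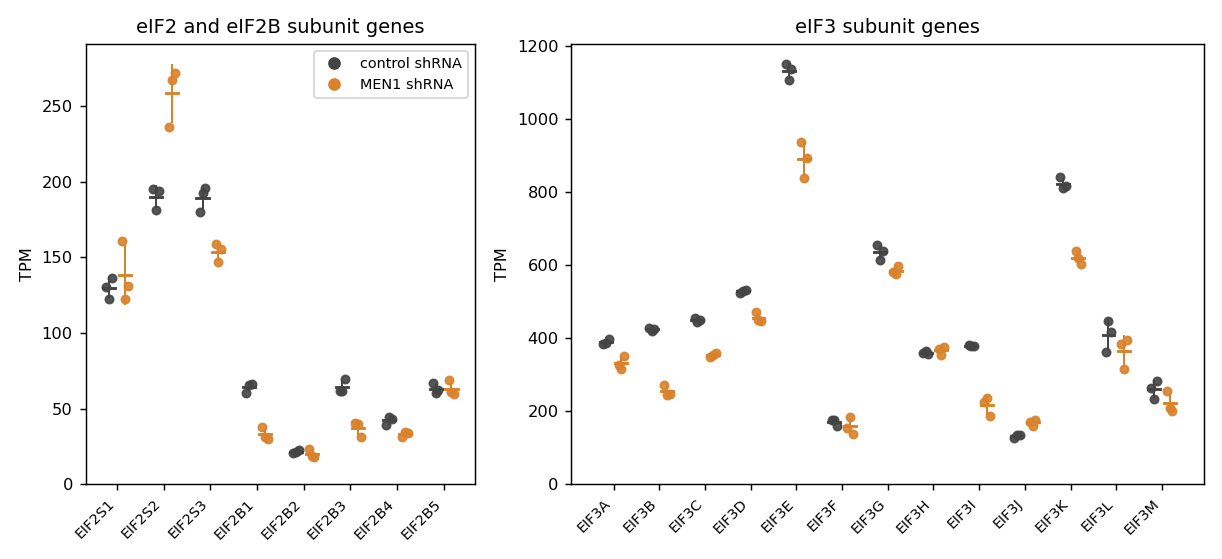
TPM of the eIF2 and eIF2B subunit genes (left) and the eIF3 subunit genes (right) in each library, control shRNA in dark grey and MEN1 shRNA in orange, with a bar at the mean and a line of 1 SD (n = 3 each). EIF2B1, EIF2B3, EIF3B and EIF3I separate widely below their controls, EIF2S2 and EIF3J above, while EIF2B5 and EIF3H overlap.

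Of the 5 genes of start selection and subunit joining, 2 fell and 0 rose (median log2FC -0.18). EIF1AX, which opens the scanning ribosome with eIF1, was at 67.3, 67.2 and 67.8 TPM against 82.5, 81.9 and 86.2 TPM, a tight fall without overlap (log2FC -0.30, SE 0.0534, adjusted p 0.00213). EIF5B, the GTPase that joins the large subunit, was at 152, 153 and 162 TPM against 176, 175 and 181 TPM (log2FC -0.18, adjusted p 0.0207), and this call was lost in 6 of 18 other settings. EIF6, which keeps free large subunits apart from small ones, was at 164, 185 and 149 TPM against 189.8, 189.7 and 197 TPM. It lay below the controls in all 3 libraries but did not pass (log2FC -0.21, adjusted p 0.0605). Without knockdown replicate 2 it was -0.30 and passed (adjusted p 0.0136). EIF5, the GTPase activator of eIF2, had a log2FC of 0.26 (adjusted p 0.0718), with 104, 108 and 116 TPM against 80.7, 86.5 and 107 TPM, and passed in 6 of the settings. EIF1 overlapped between the groups (364, 369 and 555 against 410.4, 369 and 365 TPM) and did not pass (log2FC 0.14, adjusted p 0.478). Its log2FC was -0.06 without knockdown replicate 3, while with coverage it was 0.29 and passed (adjusted p 0.0101).

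The elongation genes hold the most abundant mRNAs of the set and moved little, with 3 of 8 lower, 1 higher and a median log2FC of -0.11. EEF1A1 (ENSG00000156508, chromosome 6, 73489308 to 73525587, minus strand), which delivers aminoacyl-tRNA to the ribosome, ranked 2 among all genes in the controls. It was at 17805, 16968 and 16635 TPM in the knockdown and at 18232, 18277 and 18845 TPM in the controls. All 3 libraries lay below the controls, by 7.13% on average, and the difference did not pass (log2FC -0.11, adjusted p 0.230). Under quantile normalization it was -0.53 and passed. That method sets a value by its rank in the library. HBA1 lay below EEF1A1 in all controls and above it in all knockdown libraries (means 12208 and 23556 TPM). What gave EEF1A1 its value under quantile normalization was not tested. With its retrocopies summed in, which hold 10.1% of the total, EEF1A1 was -0.09 (adjusted p 0.275). EEF2, the translocase, also lay below the controls in all 3 libraries and did not pass, at 4102, 3771 and 3792 TPM against 4182, 4217 and 4251 TPM (log2FC -0.12, adjusted p 0.138, and 0.10 under quantile normalization). EEF2K, the kinase that inhibits eEF2, was at 31.2, 29.1 and 29.3 TPM against 30.8, 28.8 and 31.1 TPM (95% interval of the log2FC -0.18 to 0.14, adjusted p 0.867).

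Subunits of the eEF1B exchange complex, which recharges eEF1A, moved in different directions. EEF1B2 was at 1207, 1225 and 1207 TPM against 1514, 1429 and 1504 TPM and fell (log2FC -0.29, SE 0.0514, adjusted p 0.0023). EEF1D was at 583, 642 and 662 TPM against 546, 533 and 564 TPM and rose (log2FC 0.20, adjusted p 0.0303), a call that was lost in 8 of 18 other settings. EEF1G overlapped between the groups, with control replicate 2 at 1955 TPM against 2661 and 2674 TPM for the other controls (log2FC -0.08, adjusted p 0.606). Without that library its log2FC was -0.23 and passed (adjusted p 0.0291).

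EIF5A, the hypusine-bearing factor that relieves stalled ribosomes, was at 1127, 1098 and 1126 TPM against 1423, 1452 and 1388 TPM. It fell by 21.4% without overlap (log2FC -0.35, SE 0.0499, adjusted p 0.000815). Its scarce paralog EIF5A2 was at 6.39, 5.97 and 5.01 TPM against 9.47, 7.22 and 8.44 TPM (log2FC -0.46, adjusted p 0.0200), a call lost in 6 of 18 other settings.

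The size of the change was compared with abundance. Across the 47 genes, the Spearman correlation of the control TPM with the log2FC was 0.08, and with its absolute value -0.16. These genes share the same 6 libraries. The control values also enter the log2FC, so the quantities compared are not independent. The 7 genes above 1000 TPM in the controls all had log2FC between -0.35 and -0.08.

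**Figure D4:**
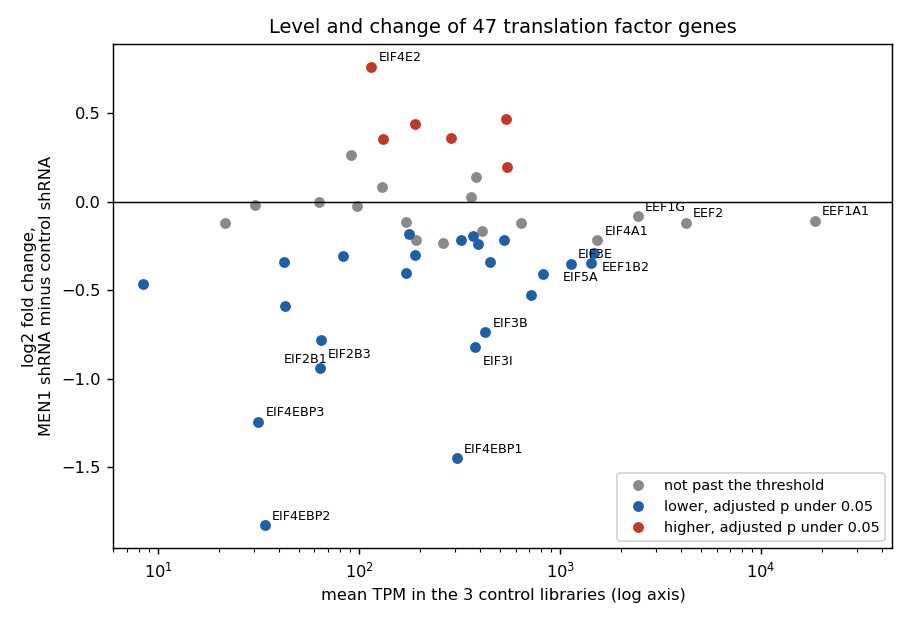
Mean TPM in the 3 control libraries (log axis) against the log2 fold change (MEN1 shRNA minus control shRNA) of the 47 tested genes, coloured by call at an adjusted p of 0.05. The most abundant genes lie between -0.35 and -0.08, and the eIF4E-binding protein genes, EIF2B1 and EIF3I sit lowest.

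Genes with and without the TOP start described with the sequences were found among those that fell, those that rose and those that did not pass. Of the 10 genes with such a start, 5 fell (EIF2S3, EIF3D, EIF3K, EIF4B and EEF1B2), 1 rose (EIF4A2) and 4 did not pass (EIF3F, EIF3M, EEF1A1 and EEF2). Of the 30 matched genes without one, 16 fell, 3 rose, 10 did not pass and 1 was not tested. None of the 5 members past limma's treat test for a fall beyond 0.5 on the log2 scale had a TOP start in the table: EIF2B1, EIF3B, EIF3I and EIF4EBP2 lacked it, and EIF4EBP1 was not matched. The E-box CACGTG, the site of MYC and other factors, which reads the same on both strands, was found within 250 bases upstream of 11 of the 56 member starts (19.6%), against 6.32% of all starts. Of the 11 genes that had it, 8 fell and 3 did not pass, and of the 29 matched genes without it 13 fell, 4 rose, 11 did not pass and 1 was not tested. These counts stand beside 31.5% lower and 22.1% higher over all genes tested. A match is a description of the letters only.

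Genes that act on these factors were taken from 6 further lists holding 64 genes, all of which passed the filter. Of them 13 were higher (20.3%) and 27 lower (42.2%) at an adjusted p of 0.05, against 22.1% and 31.5% of all genes tested. By list, in the order given below, 50.0%, 68.8%, 58.3%, 73.3%, 16.7% and 77.8% passed in either direction, against 53.6% of all genes. Among the eIF2 alpha kinases and phosphatase subunits, 2 of 6 rose and 1 fell. EIF2AK1, the heme-regulated kinase HRI, was at 301, 309.8 and 325 TPM against 181, 185 and 177 TPM and rose 1.73-fold (log2FC 0.78, adjusted p 3.9e-05). EIF2AK4, the amino-acid sensor GCN2, fell from 32.9 ± 1.24 to 23.4 ± 1.19 TPM (log2FC -0.48, adjusted p 0.001). Of the subunits that direct phosphatase to eIF2 alpha, the constitutive PPP1R15B rose from 38.6 ± 2.04 to 72.7 ± 20.1 TPM (log2FC 0.86, adjusted p 0.00725). The stress-induced PPP1R15A scattered widely, at 308, 342 and 111 TPM against 189, 90.0 and 177 TPM, and did not pass (log2FC 0.65, adjusted p 0.266). Without knockdown replicate 3 its log2FC was 1.16 and passed (adjusted p 0.0192).

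Of 16 other initiation and mRNA-binding factors, 6 rose and 5 fell. LARP1, which binds TOP mRNAs, rose from 217 ± 6.48 to 303 ± 13.5 TPM (log2FC 0.48, adjusted p 0.000308). PDCD4, an inhibitor of eIF4A, was at 294, 294 and 298 TPM against 238, 252 and 245 TPM (log2FC 0.27, adjusted p 0.00247). EIF2D and DENR, which act in re-initiation and ribosome recycling, fell, with log2FC of -0.78 and -0.50 (adjusted p 0.000278 and 0.00061). Within the mTORC1 pathway, 3 of 12 genes rose and 4 fell, on both its activating and its inhibiting sides. SESN2, an inhibitor upstream of mTORC1, rose from 4.40 ± 0.211 to 17.2 ± 3.11 TPM (log2FC 1.74, adjusted p 6.7e-05), and DDIT4, another, was at 240.0, 301 and 254 TPM against 215, 201 and 162 TPM (log2FC 0.46, adjusted p 0.0151). The call on DDIT4 was lost without the filter on low values (adjusted p 0.0664). The subunit genes MLST8 (log2FC -0.77, adjusted p 0.0011) and DEPTOR (-1.18, adjusted p 0.000434) fell, DEPTOR being the inhibitory one and only 1.02 ± 0.107 against 3.60 ± 0.587 TPM. The remaining calls of this list were RHEB, which rose (log2FC 0.49, adjusted p 0.0012), and AKT1S1 and MTOR, which fell. Their log2FC were -0.32 (adjusted p 0.00875) and -0.20 (adjusted p 0.0205).

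The list of other elongation factors and modifying enzymes held 10 lower and 1 higher gene of 15, with a median log2FC of -0.64. The higher gene was EEF1A2, the paralog of EEF1A1 typical of muscle and neurons, at 14.4, 21.1 and 23.3 TPM against 2.02, 1.66 and 1.87 TPM (log2FC 2.83, SE 0.176, adjusted p 3.2e-05). Even so it reached 0.0808% to 0.140% of the EEF1A1 level, against 0.00911% to 0.0111% in the controls. DPH2 and DPH5, of the pathway that makes diphthamide on eEF2, fell, DPH2 from 57.2 ± 5.08 to 19.3 ± 3.43 TPM (log2FC -1.53, adjusted p 7.8e-05) and DPH5 from 41.6 ± 2.12 to 26.2 ± 0.317 TPM (log2FC -0.65, adjusted p 0.000177). Of 6 termination and recycling genes, 0 rose and 1 fell, ABCE1, which splits ribosomes after termination (181 ± 12.8 to 121 ± 8.39 TPM, log2FC -0.57, adjusted p 0.000531). Of 9 mitochondrial translation factors, 6 fell and 1 rose. The mitochondrial elongation factor genes TUFM, TSFM and GFM1 led the falls, with log2FC of -0.61, -0.84 and -0.52 and adjusted p-values of 0.000114, 0.000114 and 0.000466.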

How the data were processed

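Gene expression was read from 6 deposited gene tables of 62754 rows, 1 per library. Per the labels, poly(A) RNA was made into directional libraries. The submitters' processing notes name hg38, FastQC, Trimmomatic, STAR 2.7.1a, Picard 2.20.4 and StringTie 2.0.4, without the role or settings of each, and whether quantification used strand is not given in the sources used here. The deposited TPM values sum to 1000000 per library. FPKM in the deposited tables, named so in their headers, is scaled for gene length and fragment total. The deposited coverage, also named in the file headers, is mean depth per exonic base and is unscaled. For the coverage setting it was first scaled by median of ratios, so that setting shares its scaling with the one on TPM. A negative residue near 0, found in 2 rows of control replicate 2 (TPM or coverage), was replaced by 0. The tables give no read counts, so no count model was fitted. Depth was inferred from the ratio of coverage to FPKM, which was the same within 0.1% in 94.9% to 95.4% of single-transcript genes (GENCODE v29).

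Genes with 1 TPM or more in at least 3 of 6 libraries were tested on log2(TPM + 1), which understates changes of low genes, with limma 3.58.1 in R 4.3.3 (eBayes with trend, 2-sided), Benjamini-Hochberg adjustment over all 14294 genes and a threshold of 0.05. Every adjusted p is from limma. Members were matched by gene name. The members, role groups, pathway lists and markers were chosen with earlier results of these data known. The rule names 13 fixed members, and, in each role group or pathway list, up to 3 genes past the threshold, ranked by absolute change or adjusted p. PPP1R15A, EIF2AK1, DDIT4 and PDCD4 were named in any case. Other members whose library values are given were singled out after their values were seen. The members with near-identical copies or read-through rows were also tested as sums in a separate limma fit, which differs from the plan of adding them to the same fit. Copies, and genes overlapping on the other strand, leave the division of reads uncertain, for example at EIF2B1, EIF3B, EIF4A2, EIF4EBP3, EIF5A and EIF2S2. Alternatives changed the pseudocount (0.1, 0.5), filter (none, or mean TPM of 5), unit, scaling, variance model, threshold, replicate block and libraries. The "18 other settings" are all of these except the stricter thresholds. Summaries used Python 3.11.15, pandas 2.3.3, NumPy 2.4.6 and matplotlib 3.10.9.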

Additional observations from a re-analysis of the deposited data

How the results depend on the processing

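Of 30 calls among the members, 23 passed in all 18 other settings, and no called member changed direction in any of them. The exceptions were EIF5B, EIF3A, EIF3D, EIF4G1, EIF4H, EEF1D and EIF5A2. Median-of-ratios scaling left 18 members lower, without EIF5B, EIF3A, EIF3D, EIF4G1, EIF4H and EIF5A2. A test of change beyond 0.5 on the log2 scale (limma's treat) left 5 lower and 1 higher, fewer by its own construction, and called 12.8% of the members tested against 14.9% of all genes. The members' median was -0.18 with FPKM, -0.14 with coverage, -0.13 with median of ratios and -0.15 without globin and mitochondrial genes, and the medians of all genes there were -0.04, 0.005, 0.008 and -0.01. The summed ratio was 0.926 with FPKM, 0.962 with median of ratios and 0.949 without globin and mitochondrial genes. The cause of these moves was not tested. With each library left out in turn, 5 to 7 members were higher, 21 to 25 lower, the median ran from -0.23 to -0.19 and the summed ratio from 0.892 to 0.915.

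The members and named genes whose sign turned had not passed. Among members outside the naming rule these were EIF1, EIF2B2, EIF3H and EEF1G. With FPKM, coverage, median of ratios, quantile normalization and without globin and mitochondrial genes, EIF2B5 was 0.028, 0.11, 0.083, 0.075 and 0.063, EIF4E 0.011, 0.065, 0.066, 0.038 and 0.045, and EEF2K 0.015, 0.082, 0.070, 0.088 and 0.049. EIF2S1 was -0.19 with coverage and EEF2 0.10 with quantile normalization. With 1 library left out in turn, EIF2S1 ran from -0.031 to 0.16, EIF2B5 from -0.066 to 0.038, EIF4E from -0.060 to 0.010 and EEF2K from -0.050 to 0.0045. Of 873 comparisons of 46 named genes with an alternative, 802 kept direction and side of the threshold, 43 lost the call, 4 gained it and 24 turned sign.

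Libraries with the same replicate number hardly deviated together (correlations 0.017, -0.027 and -0.012), so the numbers were not treated as pairs. With the replicate block, 6 members were higher and 24 lower, 63.8% of those tested against 49.1% of all genes, with a median of -0.21. The call of EEF1D was lost and that of EIF5 gained.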
